A study of Mus musculus with 8 samples.

Results

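Macrophages labelled as lacking Zc3h12a were compared with wild-type macrophages after 1 h of lipopolysaccharide (LPS), the earliest stimulated time of the series. Zc3h12a encodes Regnase-1, a zinc finger ribonuclease that cuts stem-loops in the 3' untranslated regions of inflammatory mRNAs and shortens their lives. Its best known target is the mRNA of interleukin 6, and mice without it are known for inflammatory disease. LPS, a cell wall component of Gram-negative bacteria, is sensed by TLR4, which within minutes activates NF-kB and MAP kinases and starts the transcription of immediate early and cytokine genes. The level of such an mRNA depends on both its transcription and its decay, and neither rate was measured here.

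The comparison used 2 of the 8 arrays of the series, chosen by title: the KO array, labelled Zc3h12a-/-, and the WT array, labelled wild-type, each from cells given 100 ng/ml of LPS for 1 h. The other 6 arrays, KO and WT at 0, 2 and 4 h with 0 h unstimulated, served as context. All cells were peritoneal macrophages from thioglycollate-injected mice; thioglycollate is an irritant that draws monocyte-derived macrophages into the peritoneal cavity, where some resident macrophages and other cells remain. The age, sex and number of mice behind an array are not given in the sources used here. Each group was 1 array, so the 1 h differences are values without a test, and nothing here measures how far 2 arrays of the same genotype would differ. Values are log2 RMA values, and a difference is KO minus WT on that log2 scale, so that 1 unit is 2-fold. Higher and lower are used of a difference of at least 2-fold at 1 h, unless a value or a test is given.

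The 2 arrays at 1 h were similar in most technical measures. Their correlation over all 45101 probe sets was 0.988. Of the 12540 genes kept for the comparison, 90.7% lay above background on the KO array and 88.2% on the WT array. Gapdh, read at its 3' and 5' ends as a check of RNA integrity, differed between the ends by 2.95 in KO and 2.99 in WT. The same measure for Actb was 2.61 in KO and 2.35 in WT at 1 h, and over the 4 times it ran from 2.30 to 3.11 in KO and from 2.16 to 2.64 in WT, with KO higher at each time. The part that RNA integrity has in the differences was not tested. General macrophage markers were high on both, with the CSF1 receptor gene Csf1r at 13.29 in KO and 13.22 in WT and the lysosomal marker Cd68 at 12.87 and 12.80 in the same order. The targeted gene did not check the labels. The brighter Zc3h12a probe set read 7.70 in KO and 8.02 in WT at 1 h, and the other read 3.19 and 3.12 in that order. Where these probe sets lie relative to the deleted part is not known here, so the array is called KO by its label only.

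Of the 12540 genes, 253 (2.02%) were at least 2-fold higher in KO at 1 h and 169 (1.35%) at least 2-fold lower. The differences had a median of -0.01 and an SD of 0.47 over all genes. Large differences were mostly upward: 79 genes were at least 4-fold higher against 14 at least 4-fold lower, and 34 at least 8-fold higher against 6. The 5 genes just inside the 2-fold limit differed by 1.01 to 1.02 and the 5 just outside by 0.98 to 0.99 on the upper side. On the lower side they differed by -1.02 to -1.01 inside and -0.998 to -0.995 outside. In RNA from a mixed harvest, fewer cells of a type and less RNA per cell cannot be told apart.

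**Figure D1:**
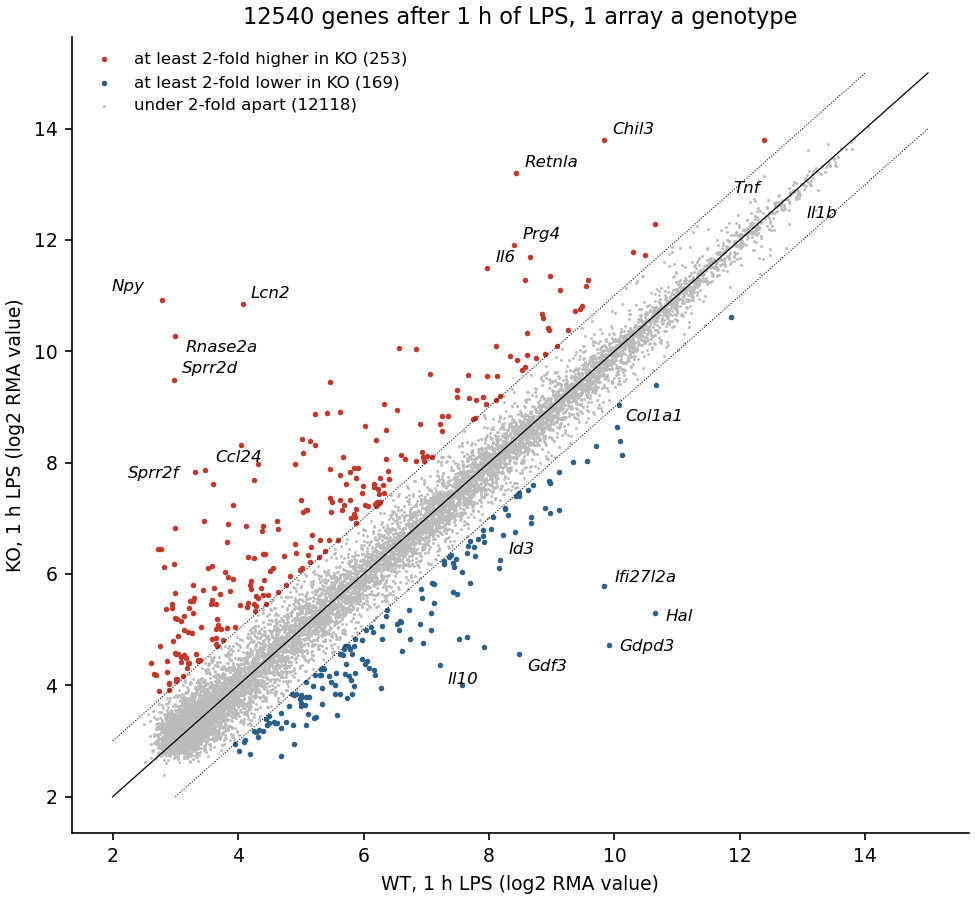
Levels of 12540 genes after 1 h of LPS on the KO array (vertical axis) and the WT array (horizontal axis), in log2 RMA values, 1 point a gene. The solid line is equality and the dotted lines are 2-fold; 253 genes are higher (red) and 169 lower (blue) in KO, while Tnf and Il1b lie near equality at the top of both scales.

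Il6, which encodes interleukin 6, was the inflammatory cytokine of largest difference. It read 3.42, 11.50, 12.52 and 12.49 at 0, 1, 2 and 4 h in KO cells, against 2.996, 7.97, 10.06 and 11.49 in WT cells. The genotypes thus began within 0.42 of each other, stood 3.53 apart at 1 h, an 11.5-fold difference, and drew together again to 2.46 at 2 h and 1.00 at 4 h. From 0 to 1 h the level was 270-fold higher in KO cells and 31.5-fold higher in WT cells. The WT level at 0 h was not above the background of that array, 3.06, so the WT fold is uncertain. The largest Il6 gap of the course was therefore the one at 1 h.

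The small proline-rich genes Sprr2d and Sprr2f, better known for proteins of the cornified envelope of skin, were the other LPS-raised genes with very large differences. Sprr2d read 3.33, 9.49, 11.88 and 11.79 at 0, 1, 2 and 4 h in KO cells, against 2.77, 2.97, 3.48 and 3.12 in WT cells. It was not above background on the WT array at 1 h, so the difference is at least 82.3-fold. Sprr2f read 3.30, 7.83, 10.92 and 10.76 in KO cells and 2.93, 3.31, 3.26 and 2.95 in WT cells at the same times, which made it 23.0-fold higher in KO at 1 h. WT cells showed almost no LPS response of either gene, 1.15-fold for Sprr2d and 1.30-fold for Sprr2f at 1 h, whereas KO cells showed 71.7-fold and 23.1-fold. Neither gene was above background on the WT array at 0 h, so these small WT folds are uncertain. The pseudogene Sprr2j-ps, named after its values were seen, had the same form, with 4.88 in KO and 3.05 in WT at 1 h. Sprr2h at 3.65 in KO and 3.19 in WT and Sprr2k at 3.92 and 3.06 in that order, likewise chosen afterwards, were under 2-fold apart at 1 h and 3.68 and 1.84 apart at 2 h. The Sprr2 genes are close copies of each other, so their probe sets may share signal and the split among them is uncertain.

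The upstream sequences of these 3 LPS-raised genes are shown because their mRNAs had the largest differences among the genes that LPS raised at least 4-fold, and because they hold sequences that LPS-activated factors are known to bind. Each is the 250 bases before the annotated start, from RefSeq on GRCm38.p6, plus strand, at chr5:30012864-30013113 for Il6, chr3:92338890-92339139 for Sprr2d and chr3:92364937-92365186 for Sprr2f. Capitals mark matches to the motifs searched on both strands: GGG followed after any 2 bases by TTTCC for NF-kB, TGANTCA for AP-1, TTNNGNAA for C/EBP, TATAAA for the TATA box and ATTTGCAT for the octamer, the last added after the sequences had been read.
Il6: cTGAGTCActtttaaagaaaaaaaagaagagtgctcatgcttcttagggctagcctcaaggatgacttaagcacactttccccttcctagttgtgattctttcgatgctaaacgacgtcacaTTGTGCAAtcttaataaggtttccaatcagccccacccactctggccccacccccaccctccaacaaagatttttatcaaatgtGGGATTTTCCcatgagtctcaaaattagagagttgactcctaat
Sprr2d: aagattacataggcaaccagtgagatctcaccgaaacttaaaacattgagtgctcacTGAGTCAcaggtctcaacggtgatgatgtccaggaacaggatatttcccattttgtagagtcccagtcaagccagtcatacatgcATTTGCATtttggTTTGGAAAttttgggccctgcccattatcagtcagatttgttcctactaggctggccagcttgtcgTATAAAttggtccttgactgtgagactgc
Sprr2f: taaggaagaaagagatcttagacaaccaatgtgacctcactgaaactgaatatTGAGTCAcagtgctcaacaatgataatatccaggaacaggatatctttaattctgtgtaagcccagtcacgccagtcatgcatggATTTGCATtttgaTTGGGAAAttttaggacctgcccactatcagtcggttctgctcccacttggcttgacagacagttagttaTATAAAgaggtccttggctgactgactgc

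Counted back from the annotated start, the Il6 window holds an NF-kB match at -44, a C/EBP match at -128 and an AP-1 match at -249. Among 32841 mouse promoter windows of the same length, 1.41% hold the NF-kB motif, 36.9% the C/EBP motif and 6.75% the AP-1 motif. The Sprr2d and Sprr2f windows hold the same 4 motifs in the same order: AP-1 at -193 and -197, the octamer at -108 and -112, C/EBP at -95 and -99 and the TATA box at -29 in both. The octamer is found in 1.60% of all windows and the TATA box in 12.4%. The 2 windows are 70% identical, so their shared motifs are not independent of each other. A match is a stretch of letters and not a measured binding site, and the windows say nothing of the 3' untranslated regions on which Regnase-1 acts.

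Il10, which encodes the anti-inflammatory cytokine interleukin 10, was the LPS-raised gene with the largest difference in the other direction. It read 3.26, 4.37, 6.90 and 4.80 at 0, 1, 2 and 4 h in KO cells, against 3.11, 7.21, 7.53 and 4.89 in WT cells. At 1 h it was 7.20-fold lower in KO, with an LPS response of 2.15-fold in KO cells and 17.2-fold in WT cells. The difference was 0.15 before LPS and -2.85 after 1 h, then -0.63 and -0.10 after 2 and 4 h, so the gap was nearly confined to 1 h among the 4 times measured. Il10ra, the gene of the ligand-binding receptor chain, read 7.81 in KO and 8.502 in WT.

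Id3, an inhibitor of basic helix-loop-helix transcription factors, was also lower after LPS and not before it. Its levels were 5.44, 6.25, 3.41 and 2.71 at 0, 1, 2 and 4 h in KO cells and 5.40, 8.17, 5.28 and 5.09 in WT cells. At 1 h it was 3.79-fold lower in KO, and unlike the Il10 gap this one did not close, with differences of -1.86 at 2 h and -2.38 at 4 h. The KO level at 4 h was not above the background of that array, 3.17, so the size of the 4 h difference is uncertain. Egr3, an immediate early zinc finger factor, read 7.52 in KO and 8.63 in WT at 1 h and differed by -0.13 at 0 h. The related Egr1, at 12.72 in KO and 12.45 in WT, and Egr2, at 12.52 and 12.27 in that order, lay a little above WT.

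**Figure D2:**
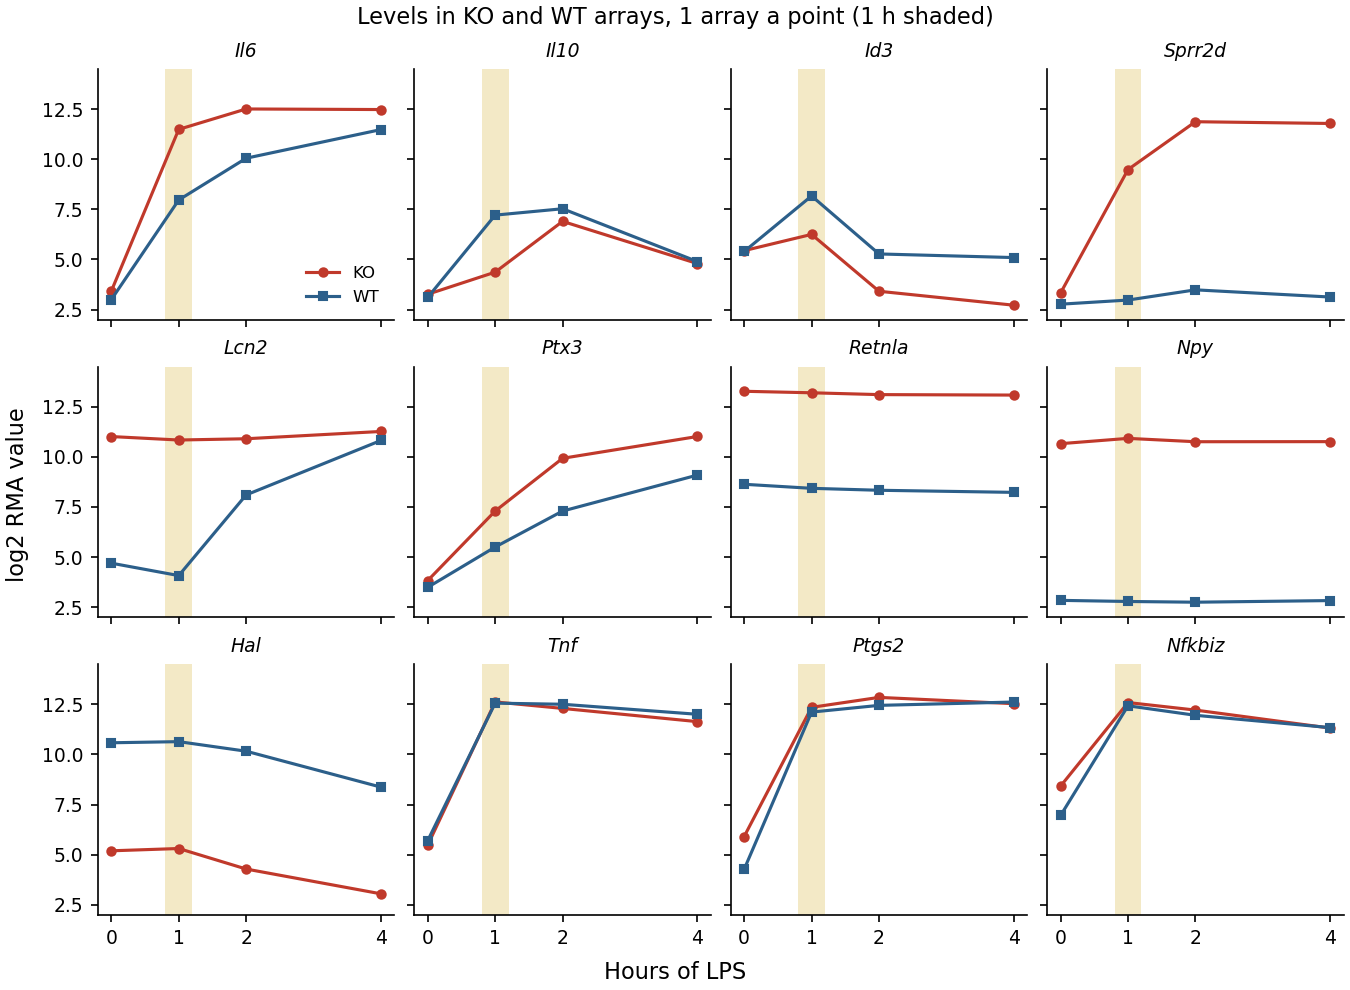
Levels of 12 genes in KO (red circles) and WT (blue squares) macrophages against hours of LPS, in log2 RMA values, 1 array a point, with 1 h shaded. Il6, Sprr2d and Ptx3 part upward and Il10 and Id3 downward at 1 h, Retnla, Npy and Hal are apart at every time, Lcn2 is apart at 0 and 1 h and meets at 4 h, and Tnf, Ptgs2 and Nfkbiz nearly meet at 1 h.

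Differences that were absent before LPS were a small share of those at 1 h. Of the 422 genes at least 2-fold apart at 1 h, 49 had a 0 h difference under 0.5, of which 33 were higher and 16 lower in KO. The following were named after their values were seen. The pattern recognition molecule gene Ptx3 read 3.83 at 0 h and 7.30 at 1 h in KO cells, against 3.49 and 5.50 in WT cells. Trem1, an activating receptor of myeloid cells, read 3.02 and 5.15 in KO cells, against 2.61 and 3.08 in WT cells at the same times, where the 1 h WT level was not above background, which makes it at least 4.06-fold higher by this probe set. The hyaluronan receptor gene Layn read 5.53 and 7.15 in KO cells and did not move in WT cells, with 5.08 at both times. Trem1 and Layn each have a second probe set above background, which differed by 0.35 for Trem1 and 0.39 for Layn.

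More of these genes encode secreted factors. Ereg, which encodes the EGF receptor ligand epiregulin, read 7.44 in KO and 6.25 in WT at 1 h. Lif, a cytokine of the interleukin 6 family, read 6.92 in KO and 5.88 in WT. Edn1, which encodes the vasoconstrictor endothelin 1, read 4.57 in KO and 3.33 in WT, and only the KO level was above its own 0 h level by over 2-fold. All 3 had a 0 h difference within 0.33 of zero. Their gaps at 2 h were 1.85 for Ereg, larger than its 1.19 at 1 h, 0.62 for Lif and 0.75 for Edn1. At 4 h the gaps were -0.18 for Ereg, 0.48 for Lif and 0.16 for Edn1, so each was smaller at 4 h than at 1 h.

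Most genes raised by the first hour of LPS were raised in both genotypes. By 1 h 332 genes (2.65%) stood at least 2-fold above their 0 h level in KO cells and 335 (2.67%) in WT cells, and 276 genes did so in both, which is 83.1% of the KO genes and 82.4% of the WT genes. Genes at least 2-fold below their 0 h level numbered 264 (2.11%) in KO cells and 416 (3.32%) in WT cells, with 170 in both, which is 64.4% of the KO genes and 40.9% of the WT genes. A total of 175 genes were raised at least 4-fold in either genotype. Of these, 21 (12%) were higher in KO at 1 h, 6 (3.43%) were lower and 148 were under 2-fold apart, with a median difference of 0.02. The same arrays chose and compared these genes, so the shares are a description only.

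**Figure D3:**
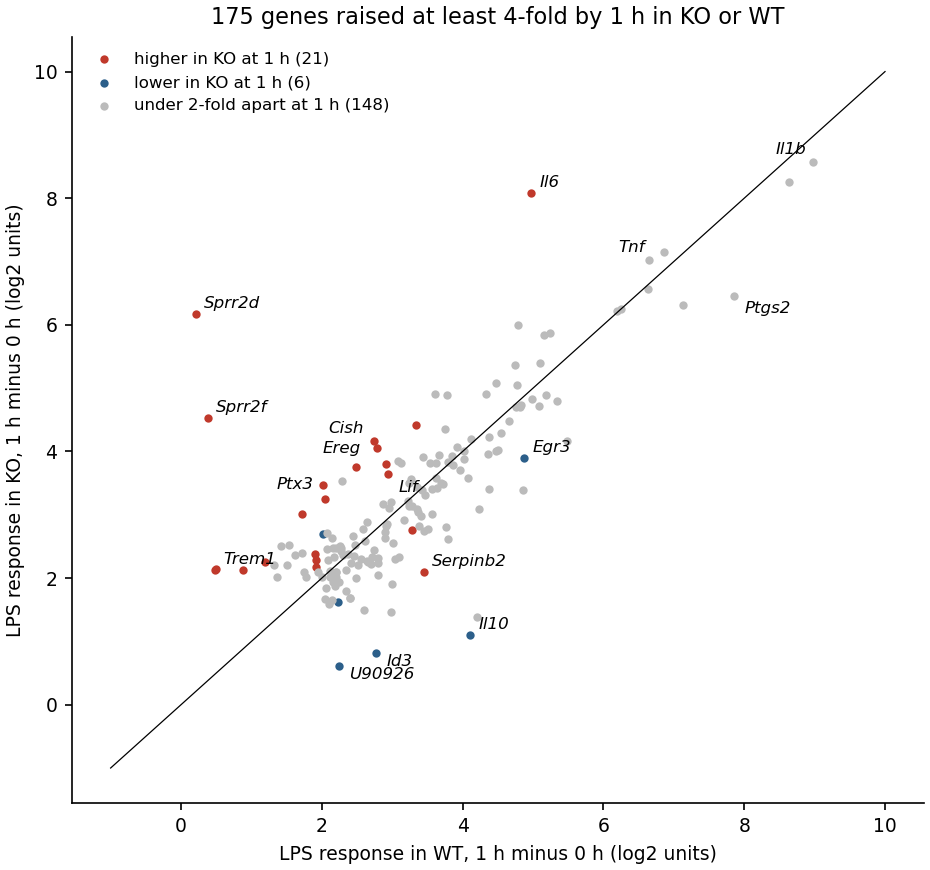
LPS response of the 175 genes raised at least 4-fold by 1 h in either genotype, as 1 h minus 0 h in log2 units, for KO (vertical) and WT (horizontal), with the line of equality. Sprr2d, Sprr2f and Il6 lie far above the line and Il10 and Id3 far below it, while most of the 148 grey genes follow it.

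Of those 27 genes, several had differed before LPS. Serpinb2, which encodes plasminogen activator inhibitor 2 and is also a resident macrophage marker, was 4.07 apart at 0 h and 2.71 apart at 1 h, with levels of 11.27 in KO and 8.57 in WT at 1 h. The gap widened with LPS for Cish, a feedback inhibitor of cytokine receptors acting through STAT5, which was 0.99 apart at 0 h and 2.42 apart at 1 h with 7.88 in KO and 5.47 in WT. Fst, which encodes the activin antagonist follistatin and was named afterwards, read 6.11 in KO and 3.52 in WT, while its other probe set differed by 0.33. Casp4, the gene of mouse caspase 11, a cytosolic LPS sensor, was lower in KO at both times, at 7.41 in KO and 8.43 in WT at 1 h.

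Several genes that NF-kB is known to drive differed little at 1 h, unlike Il6 and Il10. Tnf, the tumour necrosis factor gene, read 12.62 in KO and 12.56 in WT, after responses of 142-fold and 116-fold in that order. Il1b, the interleukin 1 beta gene, read 12.80 in KO and 12.96 in WT. The neutrophil-attracting chemokine genes Cxcl1, at 12.99 in KO and 13.13 in WT, and Cxcl2, at 12.48 and 12.36 in that order, and the NF-kB inhibitor gene Nfkbia, at 13.34 and 13.32, were likewise close. The list of NF-kB targets and feedback genes had 0 of 18 members higher and 0 lower, with a median of -0.10; over all genes 2.02% were higher and 1.35% lower, so a count of 0 in such a list is near that share. Its lowest member was Traf1, a TNF receptor adaptor gene, with 7.48 in KO and 8.47 in WT, and Traf1 had differed by -1.19 at 0 h.

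Some genes that were apart without LPS met at 1 h. A total of 65 genes differed by 2-fold or more at 0 h and by under 0.5 at 1 h. Of these, 7 were raised at least 2-fold by 1 h of LPS in either genotype, 5 higher and 2 lower in KO at 0 h. Over all genes, 2.08% were higher and 1.7% lower in KO at 0 h, and LPS raised 2.65% in KO and 2.67% in WT. The same arrays chose and compared these genes, so the counts are a description only. Ptgs2, which encodes cyclooxygenase 2, read 5.90 in KO and 4.27 in WT at 0 h, then 12.35 in KO and 12.12 in WT at 1 h. Nfkbiz, which encodes the nuclear IkB protein that cooperates in Il6 transcription, read 8.42 in KO and 6.95 in WT at 0 h, then 12.59 in KO and 12.43 in WT. Acod1, the gene of the itaconate-making enzyme, named afterwards, read 10.01 in KO and 8.81 in WT at 0 h and 13.10 and 13.04 in that order at 1 h. Nupr1 and Timp1 had the same form, and Phlda1 and Ccrl2 had the opposite one, lower in KO at 0 h, with 1 h differences of 0.16 and -0.15 in that order.

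Some genes reported as Regnase-1 targets, by studies of this and other cells, were higher at 1 h. Of 17 listed, 16 were measured above the filter, 4 of these were higher and 0 lower, against 2.02% and 1.35% of all genes, and the median was 0.14. Beside Il6, the higher ones were Lcn2, Egln3 and Tfrc, and all 3 had been higher at 0 h. The other 12 measured members were under 2-fold apart. Among them were Cxcl1, Cxcl2, Nfkbiz and Ptgs2, whose levels are given above. Lcn2, which encodes the siderophore-binding protein lipocalin 2, read 11.02, 10.84, 10.91 and 11.27 at 0, 1, 2 and 4 h in KO cells, against 4.69, 4.07, 8.10 and 10.82 in WT cells. It was already near its KO maximum without LPS and was 109-fold higher at 1 h, and WT cells reached that level by 4 h. The prolyl hydroxylase gene Egln3 read 5.87 in KO and 4.21 in WT, and the transferrin receptor gene Tfrc read 11.74 in KO and 10.49 in WT, with differences of 0.12 to 1.92 over its 3 probe sets. Il12b, the gene of the p40 chain of interleukin 12 and 23, was still low at 1 h with 4.00 in KO and 4.35 in WT, and Calcr, the calcitonin receptor gene, was not above background on either array.

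Few other early regulators were 2-fold apart, which at 2.02% higher and 1.35% lower holds for all genes too. Immediate early genes had 1 of 28 members higher and 1 lower, with a median of 0.06. Klf4, a zinc finger factor gene, was the higher one, at 7.85 in KO and 6.398 in WT, and it had been 1.49 apart at 0 h. None of the 17 mRNA decay factors was 2-fold apart: the tristetraprolin gene Zfp36 read 11.58 in KO and 11.51 in WT, and the Roquin-related gene Rc3h2 read 8.30 and 8.41 in that order. None of the 10 MAP kinase phosphatases was 2-fold apart either, but 8 of the 10 had a negative difference and their median was -0.37, or -0.16 with the mean of all probe sets. Dusp5, an ERK phosphatase gene, read 9.09 in KO and 9.81 in WT, and Dusp4, with 7.10 in KO and 6.26 in WT, went the other way. Toll-like receptors and adaptors had 0 of 18 members apart, with Tlr4 at 8.83 in KO and 8.54 in WT.

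Interferon genes were mixed at 1 h. Ifnb1, which encodes interferon beta, read 6.79 in KO and 6.34 in WT, with a difference of -0.63 at 2 h. Of 30 interferon-stimulated genes 3 were higher and 1 was lower, against 2.02% and 1.35% of all genes, with a median of 0.12. The immunity-related GTPase genes Iigp1 and Irgm1 were higher, at 8.17 and 7.01 in KO against 5.03 and 5.79 in WT, while the oligoadenylate synthetase gene Oas1a was lower, at 7.41 in KO and 8.47 in WT. Ifi27l2a, named for its interferon response, had one of the largest negative differences of all genes, at 5.79 in KO and 9.84 in WT. Irf4, a factor linked to alternative activation and dendritic cells, read 8.57 in KO and 7.24 in WT. Before LPS the differences were 2.04 for Iigp1, 0.42 for Irgm1, -0.92 for Oas1a, -4.70 for Ifi27l2a and 0.85 for Irf4.

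The largest positive differences at 1 h were those of Npy and Rnase2a, which LPS did not raise. Npy, which encodes neuropeptide Y, read 10.66, 10.93, 10.76 and 10.76 at 0, 1, 2 and 4 h in KO cells, and 2.84, 2.78, 2.74 and 2.82 in WT cells, where it was not above background at 1 h. The difference at 1 h is at least 223-fold. Rnase2a, a gene of the eosinophil-associated ribonuclease family, read 10.28 in KO and 2.99 in WT at 1 h and was at least 143-fold higher. Ccn3, which encodes a matricellular protein, read 8.31 in KO and 4.04 in WT, and the acute phase protein gene Orm1, named afterwards, read 8.87 and 5.22 in that order. Members of the antibody genes were also higher, with the IgM heavy chain gene Ighm at 9.45 in KO and 5.46 in WT on the probe set used here. Differences ran from 0.51 to 8.09 among the 8 Ighm probe sets that were above background at 1 h.

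Alternative activation genes, which interleukin 4 and 13 are known to induce in macrophages, held many large differences. Of 15 measured members 9 were higher and 2 lower at 1 h, against 2.02% and 1.35% of all genes, and the median was 2.66 against -0.01 for all genes. Retnla, which encodes resistin-like alpha, read 13.28, 13.20, 13.11 and 13.09 at 0, 1, 2 and 4 h in KO cells, and 8.63, 8.43, 8.33 and 8.23 in WT cells, a 27.3-fold difference at 1 h. The chitinase-like lectin gene Chil3 read 13.79 in KO and 9.84 in WT, the eosinophil-attracting chemokine gene Ccl24 read 7.87 and 3.47 in that order, and the arginase gene Arg1 read 11.70 and 8.65. Not all members followed: Pparg, a nuclear receptor gene of lipid metabolism, read 7.46 in KO and 8.48 in WT, the scavenger receptor gene Stab1 read 7.42 and 8.46 in that order, and the interleukin 4 receptor gene Il4ra read 5.11 and 5.39. The 2 lower members lay close to the 2-fold limit.

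Markers of resident peritoneal macrophages were higher together. All 16 measured members had a positive difference at 1 h, 12 were at least 2-fold higher, against 2.02% of all genes, and the median was 1.64. Their summed linear level was 32728 in KO and 11151 in WT. Prg4, which encodes lubricin, read 11.90 in KO and 8.40 in WT, the P-selectin gene Selp read 10.06 and 6.56 in that order by the brightest of its 3 probe sets, of which the least different was 0.76 apart, and the apolipoprotein gene Apoc1 read 8.91 and 5.63. Gata6, the factor that defines the resident population, was low on both arrays, at 4.10 in KO and 3.15 in WT. The general macrophage markers, in contrast, had a median of -0.02 and summed levels of 71072 in KO and 70471 in WT, with 1 of 18 members higher. Alox15, Serpinb2 and Cxcl13 are counted in more than 1 list or change with activation, and the part that a different share of resident cells has in these values was not tested.

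**Figure D4:**
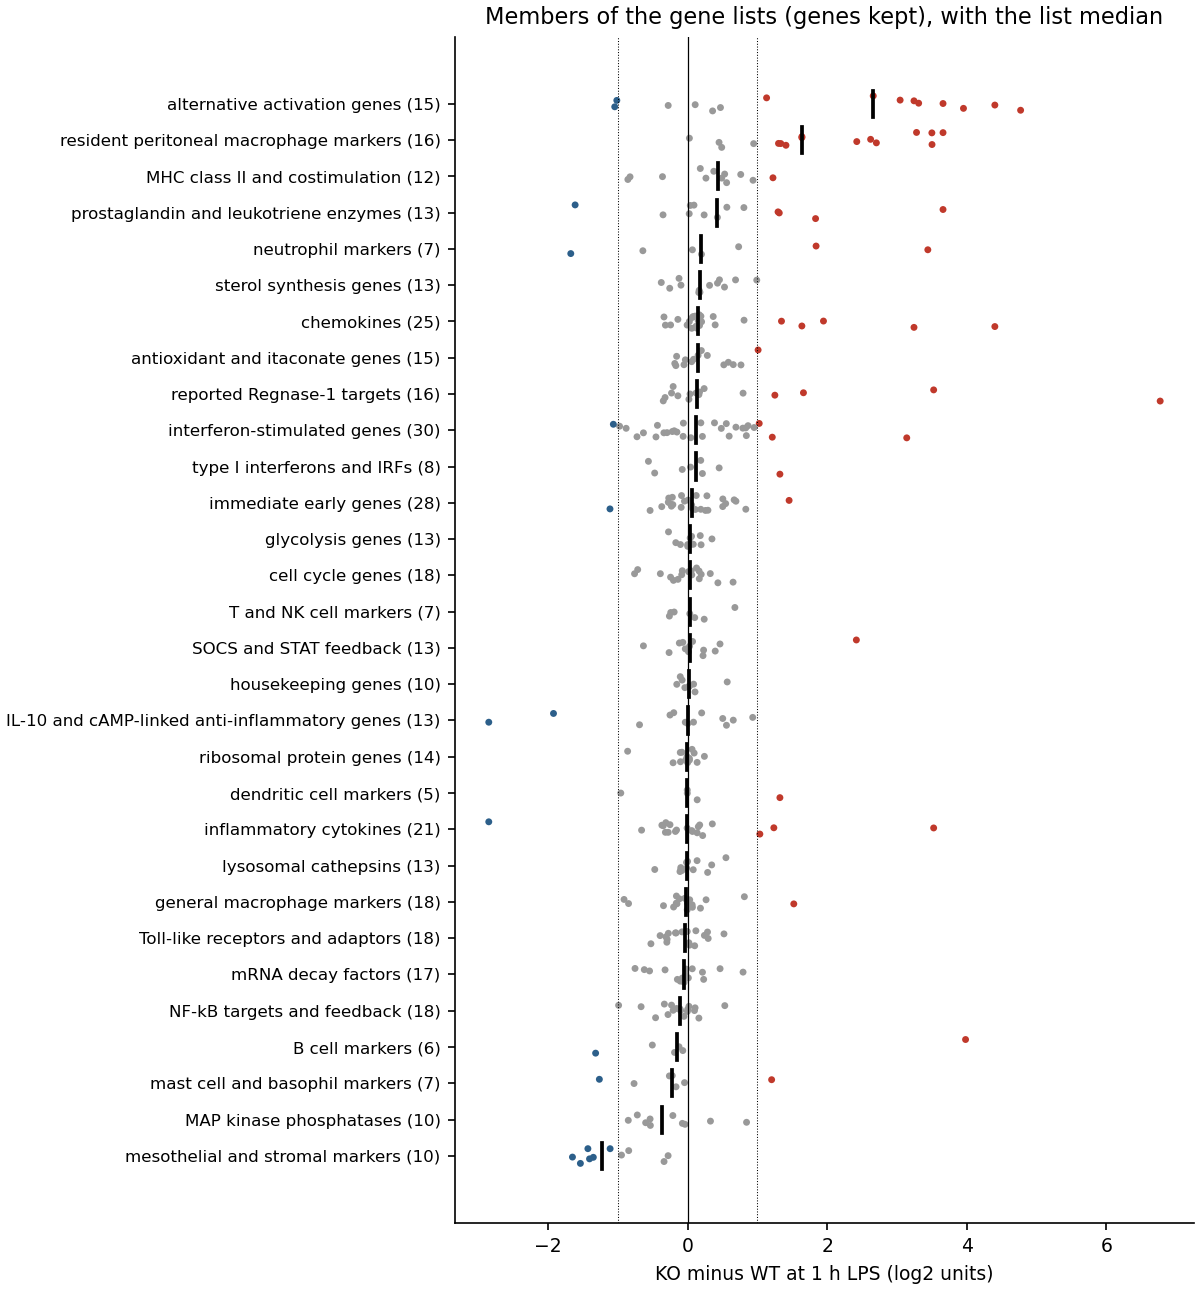
KO minus WT at 1 h in log2 units for the measured members of 30 gene lists (1 point a gene, number of members in brackets, vertical offset for legibility only), with the list median as a black bar and 2-fold as dotted lines. Alternative activation genes (median 2.66) and resident macrophage markers (1.64) lie furthest right and mesothelial and stromal markers (-1.23) furthest left, while most LPS-related lists are centred near 0.

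Markers of other cells the harvest could hold were uneven. Mesothelial and stromal markers were lower, with 6 of 10 measured members at least 2-fold lower and 0 higher, against 1.35% and 2.02% of all genes, a median of -1.23 and summed linear levels of 802 in KO and 2050 in WT. The collagen gene Col1a1 read 8.63 in KO and 10.04 in WT, and Pdgfra, a receptor gene of fibroblasts, read 6.03 and 7.57 in that order, while another Pdgfra probe set differed by -0.07. Of 7 measured neutrophil markers 2 were higher and 1 was lower: S100a9, one chain of calprotectin, read 7.69 in KO and 4.25 in WT, its partner S100a8 read 10.70 and 10.50 in that order, and the gelatinase gene Mmp9 read 3.67 and 5.34, with its other probe set at a difference of -0.38. Of 6 measured B cell markers 1, Ighm, was higher and 1 lower, with a median of -0.15. The lower one was Cd22, the gene of an inhibitory lectin of B cells, at 8.02 in KO and 9.34 in WT. Cd79a, at 3.23 in KO and 3.41 in WT, Ms4a1, at 3.28 and 3.35 in that order, and Blk, at 3.34 and 3.47, were near background on both arrays. The eosinophil receptor gene Siglecf read 5.56 in KO and 5.50 in WT. T and NK cell markers had 0 of 7 members apart. The part that such cells have in the differences was not tested.

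Enzymes of lipid mediators differed in several members. Of 13 measured genes 4 were higher and 1 was lower, against 2.02% and 1.35% of all genes, with a median of 0.43, or 0.20 without the probe sets that may hit more than 1 transcript. The lipoxygenase genes Alox15, at 7.98 in KO and 4.32 in WT, and Alox5, at 5.70 and 3.87 in that order, were higher, as was the prostaglandin E synthase gene Ptges at 7.60 and 6.31. Hpgds, which encodes the haematopoietic prostaglandin D synthase, was lower, at 4.16 in KO and 5.77 in WT. Before LPS the differences were 2.88 for Alox15, 1.79 for Alox5, 1.04 for Ptges and -1.77 for Hpgds. Of 25 chemokines 5 were higher and 0 lower, against 2.02% and 1.35% of all genes. The 5 were Ccl24, Ccl17, Cxcl9, Cxcl13 and the platelet factor gene Pf4. All of them had also been higher by at least 2-fold at 0 h. Ccl24 and Ccl17 are also counted among the alternative activation genes and Cxcl13 among the resident macrophage markers. Sterol synthesis, glycolysis, cathepsin, cell cycle and ribosomal protein genes had 0 members 2-fold apart in either direction, which is near the share of all genes for lists of this size.

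The largest negative differences were likewise present without LPS. Hal, which encodes histidine ammonia-lyase, read 5.19, 5.30, 4.28 and 3.04 at 0, 1, 2 and 4 h in KO cells, against 10.59, 10.64, 10.16 and 8.37 in WT cells, and was 40.4-fold lower at 1 h. Gdpd3, a glycerophosphodiester phosphodiesterase gene, read 4.73 in KO and 9.92 in WT at 1 h, and was 36.4-fold lower. The TGF-beta family ligand gene Gdf3 read 4.56 in KO and 8.47 in WT, and the oligopeptide transporter gene Slc15a2 read 4.01 and 7.58 in that order. Zmynd8, Cep85, Pawr, Gas1, Arsb and Cnrip1 are also among the 15 lowest genes, but each of them, and Slc15a2, has another probe set above background with a difference between 0.09 and 0.38, so their direction rests on the brightest one.

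Most 1 h differences were present at other times. Of the 253 genes higher in KO at 1 h, 186 were also at least 2-fold higher at 0 h (2.08% of all genes at that time), 93 at 0, 2 and 4 h alike, and 29 at none of these times. Of the 169 lower genes the numbers were 106, 57 and 31. In all, 1.7% of genes were lower at 0 h, 1.97% higher and 2.84% lower at 2 h, and 1.67% higher and 2.2% lower at 4 h. The arrays at 0, 2 and 4 h, which the 1 h comparison does not use, allowed a test of genotype with time as a block (limma, Benjamini-Hochberg adjustment over 12540 genes, threshold 0.05, 2 residual degrees of freedom). It passed 408 genes higher (3.25%) and 829 lower (6.61%) in KO. Among the genes higher at 1 h, 161 (63.6%) passed it in the same direction and 0 in the opposite one, and among those lower at 1 h, 115 (68.0%) and 0. Leaving out the 4 h arrays cut the test to 158 genes higher and 160 lower, and leaving out the 2 h arrays to 176 and 222. The numbers shared with 1 h then were 131 and 90 without the 4 h arrays and 119 and 94 without the 2 h arrays.

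In that test Npy was higher in KO by 7.93 ± 0.10 (SE, 3 arrays a genotype, each from a different time, limma adjusted p = 1.09e-05). Retnla was higher by 4.76 ± 0.10 (limma adjusted p = 6.77e-05), and all 3 times shared the sign for both genes. The error here comes from how far the gap between KO and WT varies among these times. With so few degrees of freedom, limma draws each gene's error toward that of all genes. The error does not measure spread between arrays or mice of the same genotype and time. A small p therefore means a gap that is large against such variation over time. Hal differed by -5.54 ± 0.14 (limma adjusted p = 9.39e-05). Of the 15 alternative activation genes 8 passed as higher and 2 as lower, against 3.25% and 6.61% of all genes. Of the 16 resident macrophage markers 11 passed as higher, and of the 10 mesothelial and stromal markers 8 passed as lower. The adjusted p from limma missed the threshold at 0.0857 for Il6, 0.075 for Sprr2d, 0.107 for Lcn2, 0.107 for Id3 and 0.466 for Il10, but some genes whose gap varied with time passed, such as Serpinb2 at 0.0261.

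**Figure D5:**
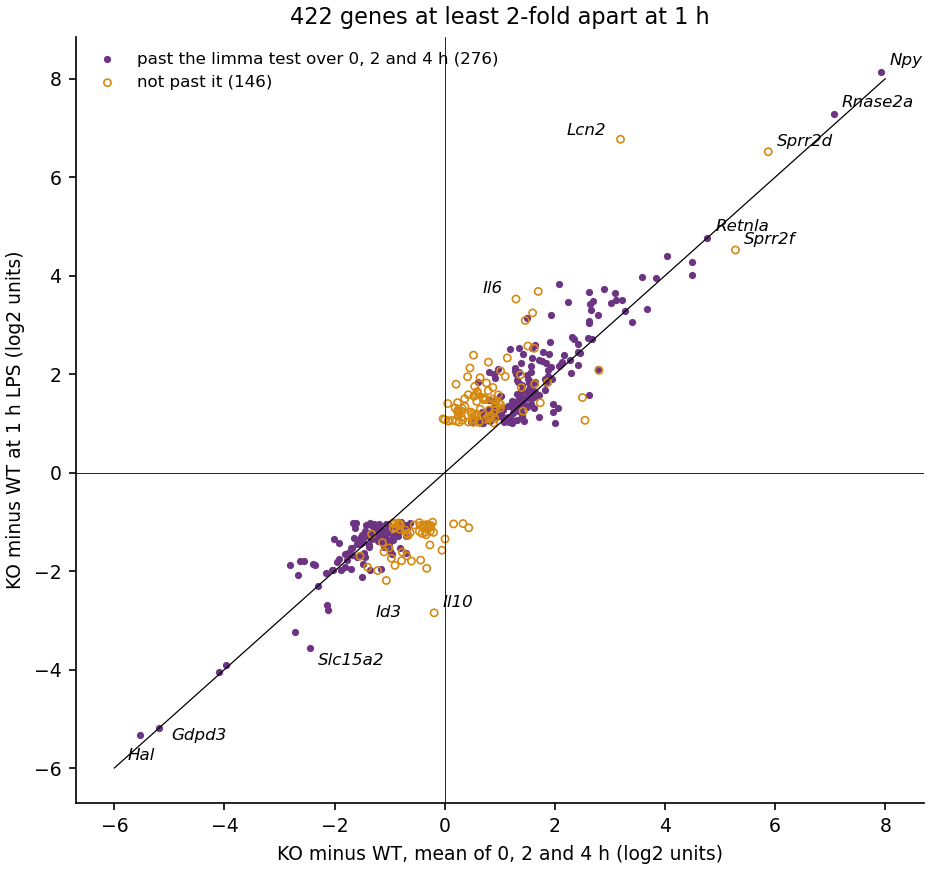
KO minus WT at 1 h (vertical) against the mean KO minus WT difference over 0, 2 and 4 h (horizontal), both in log2 units, for the 422 genes at least 2-fold apart at 1 h, with the line of equality. Filled points (276) passed limma's test over 0, 2 and 4 h and the 146 open points did not. Il6, Lcn2 and Il10, among the open points, lie off the line, as does the filled point of Slc15a2.

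Whether the 1 h difference departed from the mean difference at 0, 2 and 4 h was tested over all 8 arrays with limma, and 0 genes passed at an adjusted p of 0.05. At an unadjusted p under 0.05 there were 831 genes, 566 upward and 265 downward, where 627 would be given by chance, and the smallest adjusted p was 0.751. Il10 had the smallest p among the downward genes, with an estimate of -2.66 ± 0.33 (SE, limma adjusted p = 0.751). Il6 had an estimate of 2.23 ± 0.75 (SE, limma adjusted p = 0.751). The error of this test comes from how far the genotype difference varies among 0, 2 and 4 h. Here too limma draws each gene's error toward that of all genes. The error remained large for genes whose gap changes with LPS: it was 3.20 for Sprr2d and 2.06 for Lcn2. The genes with p under 0.05 were dim, with a median level of 3.92 against 5.25 for all genes, and the upward ones of smallest p were Mast4, Gtf3c6, Gm46390, Sass6 and Zfp955a. No gene is therefore shown by a test to differ specifically at 1 h.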

How the data were processed

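RNA of 8 macrophage samples was hybridised to 1 Affymetrix array each. The deposited table holds log2 values of 45101 probe sets, made by the authors with RMA per the submitters' processing notes, version not given in the sources used here. RMA makes the arrays' distributions alike, so a change in total mRNA is not seen, and scanner intensities were not used here. Per the labels' protocols, Trizol was used for extraction and NuGEN Ovation for labelling. The platform annotation gave gene names: 34958 probe sets had 1 symbol, 932 several and 9211 none here. Of the named ones, 34754 had an Entrez ID in the RefSeq table, which changed 0 symbols. A gene was its probe set of highest mean, kept where its second-highest array reached 3.16, the median of all values (12540 of 18193 genes).

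The 1 h difference is 1 array minus 1 array, without a test. limma 3.58.1 in R 4.3.3 gave the tests over other arrays, checked on simulated data. Background was the highest of 27 bacterial control probe sets, 3.10 in KO and 3.13 in WT at 1 h, and "at least" folds use it as a floor. That rule, the members and the lists were chosen with earlier results of these data known. The rule for named genes took Zc3h12a, the 15 largest differences each way, the 4 largest of each list, the 5 of smallest departing p each way, the 5 nearest each side of the limit, and fixed genes of interest; any other gene named was chosen after its values were seen. Promoter windows came from RefSeq (GRCm38.p6), read with Python 3.11.15. Alternatives were cyclic loess, centring on housekeeping genes, other filters, probe set rules and folds, eBayes with trend and robust settings, and leaving out each array. The number of arrays limits the precision.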

Additional observations from a re-analysis of the deposited data

Results flagged for a closer look

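Probe sets that carry no gene symbol here were left out of the comparison, and some of them were apart too. Of 3417 such probe sets that passed the same filter and lay above background on a 1 h array, 74 (2.17%) were at least 2-fold apart at 1 h. Of these, 25 were higher and 49 lower in KO, with differences between -5.10 and 2.74. They are without a name in the annotation used here, and what they measure was not analysed. No group had 4 or more arrays, so no search for outlying arrays within a group was possible.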

How the results depend on the processing

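With 1 array a genotype the 1 h values carry no replicate error, and RMA values allow no other background correction or slide block. No paired analysis was possible because the labels give no replicate numbers; the test over 0, 2 and 4 h sets KO against WT within each time. Cyclic loess and centring on housekeeping genes moved the median of all genes to 0.0002 and 0.05, and the share of the apart genes that are higher was 60.5% and 65.3%, against 60.0%. Averaging all probe sets of a gene left 94 genes lower. Counts followed the fold chosen, with 639 higher and 589 lower at 1.5-fold and 119 higher and 52 lower at 3-fold. The median of the mesothelial and stromal markers was -0.86 with averaged probe sets and -0.90 without the filter. With the probe sets that may hit more than 1 transcript left out, the median of the immediate early genes was -0.04 and that of the NF-kB list -0.002, and with averaged probe sets that of the interferon-stimulated genes was -0.01. The B cell median was 1.33 with the filter at the 75th percentile, which keeps fewer genes. Without those shared probe sets Snhg10 was 0.24 at 1 h and Tpm2 was 0.50 over 0, 2 and 4 h, both reversed, since another probe set then stands for the gene. Over 0, 2 and 4 h, 496 genes were lower with cyclic loess, and 664 were higher and 1265 lower with trend and robust settings. Leaving out each array gave 158 to 282 genes higher and 160 to 472 lower. Leaving out 1 array removes its time from that test, so both arrays of a time gave the same counts. The cause of the other shifts was not tested. The test of a departing 1 h difference passed 0 genes under every alternative run.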

Other observations

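The 20 measured genes nearest to Zc3h12a on its chromosome, 10 on each side in the RefSeq gene order, had 0 members at least 2-fold higher and 0 at least 2-fold lower at 1 h, which for 20 genes is near the 2.02% and 1.35% of all genes. Their differences ran from -0.64 for Csf3r, the granulocyte colony-stimulating factor receptor gene, to 0.84 for Gnl2, a nucleolar GTPase gene, with a median of -0.03.

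Some immunoglobulin genes outside the lists, chosen after their values were seen, were higher in KO at 1 h. The share of all measured immunoglobulin genes that was higher is not given here. The joining chain gene Jchain read 6.94 in KO and 3.45 in WT, and the kappa light chain gene Igk read 8.89 in KO and 5.42 in WT. Both also passed limma's test over 0, 2 and 4 h, at 2.70 ± 0.21 (SE, adjusted p = 0.00425) for Jchain and 2.23 ± 0.12 (SE, adjusted p = 0.00131) for Igk.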
